A study of Mus musculus with 20 samples.

Results

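Rosuvastatin was compared with vehicle in the livers of obese mice, across all genes with adequate counts. The rosuvastatin group held 5 libraries from wild-type (WT) mice titled DIO, for diet-induced obesity, and given rosuvastatin. The vehicle group held 5 libraries from mice of the same genotype and the same DIO title that received vehicle. These 10 libraries are part of a set of 20, whose other 10 came from DIO mice given geranylgeraniol (GGOH), with rosuvastatin in 5 of them. Of 34933 named entries in the count table, 12789 passed the filter on low counts and were tested, and 12113 of those carry an assigned gene name. Dose, route, length of treatment, diet, age and sex are not given in the sources used here. The labels do not say that each library came from a separate animal, so the p-values measure only the spread between these samples.

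Rosuvastatin is a statin, a class of drugs that block an early step of the mevalonate pathway. That pathway runs from acetyl-CoA to farnesyl diphosphate, where it divides into a sterol arm ending in cholesterol and an isoprenoid arm that makes geranylgeranyl diphosphate, ubiquinone and dolichol. When sterols in the endoplasmic reticulum of hepatocytes are low, the transcription factor SREBP-2 is released from its membrane anchor and raises the genes of cholesterol synthesis. Hepatocytes take up rosuvastatin through organic anion transporters of the OATP family. GGOH is an isoprenoid alcohol that cells can turn into geranylgeranyl diphosphate.

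Total estimated counts ran from 14735780 to 16961665 in the rosuvastatin libraries and from 12947681 to 16776626 in the vehicle libraries. Mitochondrial transcripts took 8.66 to 16.4% of the counts with rosuvastatin and 11.9 to 15.9% with vehicle. Albumin mRNA lay between 36157 and 48669 CPM in the rosuvastatin livers and between 41959 and 67610.5 CPM in the vehicle livers, and the 9 hepatocyte markers tested were detected throughout, as the tissue label says. CPM here is the TMM-scaled count relative to library size, and log2 fold changes are fitted ones with their SE. On the first principal component of the 10 libraries, which held 43.4% of the variance, vehicle livers 2, 4 and 5 lay between -56.9 and -35.0, with vehicle liver 3 at 28.5 and vehicle liver 1 at 66.1, with the 5 rosuvastatin livers between -14.9 and 39.7.

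The mRNAs of the cholesterol synthesis enzymes were higher with rosuvastatin along nearly the whole pathway, but not in every treated liver. Of the 20 enzymes tested, 19 had a positive log2 fold change, and the median was 1.11, against -0.02 over all 12789 genes, of which 47.3% were positive. In edgeR, 17 of the 20 were at an unadjusted p under 0.05 and higher with the statin, against 1.77% of all genes tested. None of the 20 passed after adjustment over all genes (edgeR adjusted p of 0.973 for 19 of them and 0.997 for Ebp). For 15 of the 20 the median rosuvastatin liver was above every vehicle liver, yet in none did the groups separate completely.

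Fdps, the synthase of farnesyl diphosphate at the branch point (chromosome 3, 89093588 to 89101959 on the minus strand of GRCm38), stood at 149.8, 53, 252.05, 118 and 40.7 CPM in rosuvastatin livers 1 to 5 and at 72.7, 63.9, 15.5, 27.4 and 16.7 CPM in vehicle livers 1 to 5. Rosuvastatin livers 1, 3 and 4 were above every vehicle liver, while livers 2 and 5 lay inside the vehicle range. Its log2 fold change was 1.64 ± 0.51 (SE). Mvd, mevalonate diphosphate decarboxylase (chromosome 8, 122433601 to 122443422, minus strand), had 31.8, 14.8, 46.3, 26.1 and 5.64 CPM with rosuvastatin and 11.1, 17.3, 2.15, 5.92 and 3.44 CPM with vehicle, a change of 1.64 ± 0.55. The order of the treated livers was the same as for Fdps, with livers 3, 1 and 4 above all vehicle livers and liver 5 the lowest of the 5.

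**Figure D1:**
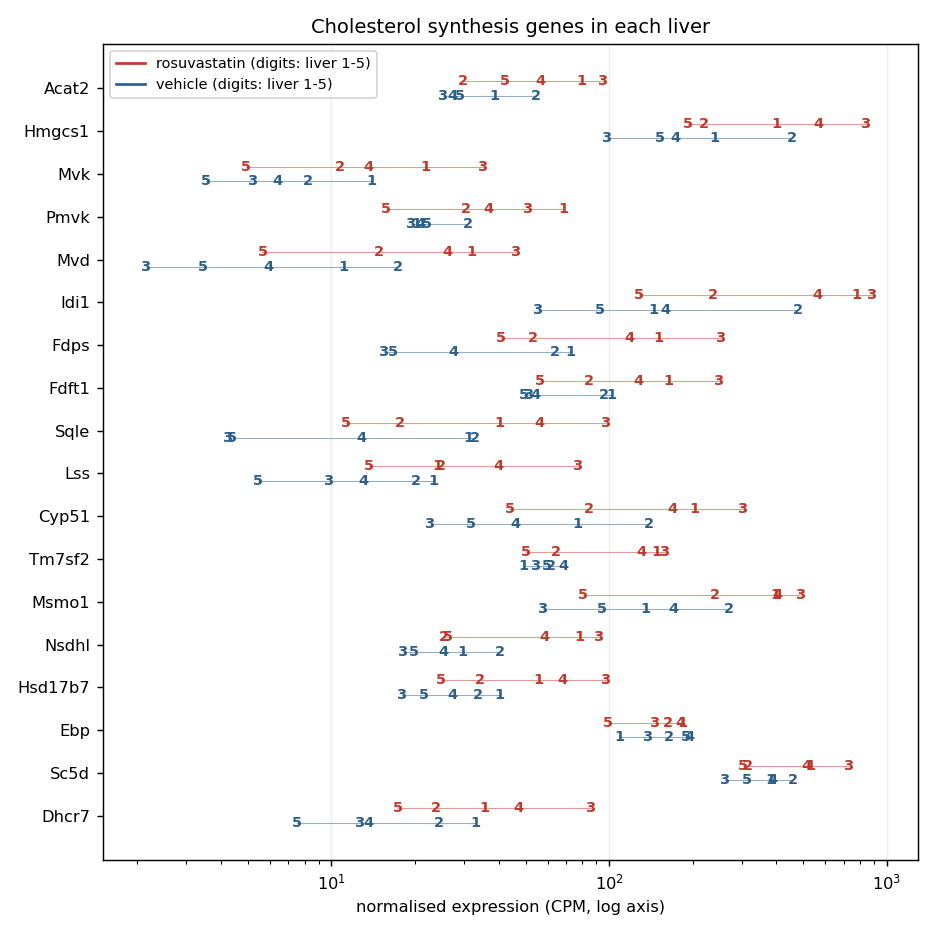
Normalised expression (CPM, log axis) of 18 of the 20 cholesterol synthesis genes in pathway order from top to bottom, with each digit marking 1 liver, rosuvastatin (red) above vehicle (blue) and a line spanning each group. Rosuvastatin liver 3 is the highest and liver 5 the lowest of its group in most genes drawn, and every pair of lines overlaps.

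At the entry of the pathway, Acat2, the cytosolic acetoacetyl-CoA thiolase, differed by 0.80 ± 0.28 and Hmgcs1, HMG-CoA synthase, by 0.99 ± 0.42. The mevalonate kinases came next, with Mvk at 1.19 ± 0.43 and Pmvk at 0.83 ± 0.32. Idi1, which isomerises isopentenyl diphosphate, had 776, 236, 886, 564 and 128 CPM in rosuvastatin livers 1 to 5, against 144, 478, 55.3, 159.6 and 92.8 CPM in vehicle livers 1 to 5, and a change of 1.48 ± 0.55. Here livers 1, 3 and 4 exceeded the highest vehicle liver, number 2, while treated liver 5 was below vehicle livers 1, 2 and 4.

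In the sterol arm, Fdft1, squalene synthase, differed by 0.95 ± 0.34 and Lss, lanosterol synthase, by 1.32 ± 0.44. Sqle, squalene epoxidase, had 40.4, 17.7, 97.6, 56.3 and 11.2 CPM with rosuvastatin and 31, 33, 4.23, 12.8 and 4.39 CPM with vehicle, a change of 1.38 ± 0.62. Treated livers 1, 3 and 4 were above the vehicle livers, of which 1 and 2 were several times above 3 and 5. The enzymes that trim lanosterol were also higher: Cyp51, the lanosterol demethylase, by 1.35 ± 0.50, Msmo1, the methylsterol oxidase, by 1.15 ± 0.45, Nsdhl by 1.07 ± 0.36, Hsd17b7 by 0.99 ± 0.35 and Tm7sf2, a sterol reductase, by 0.92 ± 0.30. These 5 were each at an unadjusted edgeR p under 0.05.

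The last steps were uneven. Dhcr7, the reductase that makes cholesterol from its immediate precursor, differed by 1.20 ± 0.40. Sc5d, a sterol desaturase, was at 0.41 ± 0.23 and did not reach an unadjusted edgeR p under 0.05 (0.0865). Ebp, the sterol isomerase, had 183, 163, 146, 179.8 and 99.1 CPM with rosuvastatin and 109, 163, 138, 195 and 189 CPM with vehicle, a log2 fold change of -0.04 ± 0.20 whose sign turned positive in 5 of 21 alternative settings, among them both fits to TPM. It had the smallest difference of the 20, with the treated livers spread across the vehicle range and liver 5 below it. On a per-length scale, mean levels with rosuvastatin were highest for Sc5d (236 ± 139 TPM, SD, n = 5), Msmo1 (213 ± 123) and Idi1 (193 ± 143), and lowest for Lss (11.6 ± 11.4) and Mvk (13.3 ± 11.5). With vehicle the same genes stood at 146 ± 66, 84.6 ± 44.1, 55.8 ± 41.3, 4.74 ± 4.28 and 5.50 ± 4.90 TPM.

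The livers kept nearly the same order from gene to gene. Among treated livers, number 3 was the highest in 17 of 20 genes and number 5 the lowest in 17, with liver 2 lowest in the other 3. Livers 1, 3 and 4 exceeded every vehicle liver in 16, 19 and 17 genes, whereas liver 2 did so in 1 gene and liver 5 in 0. Against the vehicle median, liver 5 was higher in 9 genes and liver 2 in 17. Vehicle livers were ordered too: number 2 was highest in 11 genes and number 1 in 7, and number 3 was lowest in 13. Without rosuvastatin liver 3, the median log2 fold change of the 20 genes was 0.77 and 8 were at an unadjusted edgeR p under 0.05. Among single genes, the log2 fold change without rosuvastatin liver 3 was 0.89 for Sqle, 0.85 for Lss, 0.78 for Dhcr7, 0.77 for Mvk, 0.64 for Hmgcs1 and 0.63 for Fdft1, and that of Idi1 without vehicle liver 2 was 2.22. Without rosuvastatin liver 5 the median of the 20 genes was 1.35 with 18 at that p. Fdps, Mvd, Sqle and Fasn were also compared by exact permutation of the 10 livers, two-sided, in a family of 7 genes. The p-values were 0.0476 for Fdps, 0.0714 for Mvd and 0.119 for Sqle, where the smallest that 5 against 5 allows is 0.00794. Adjusted by Benjamini and Hochberg over the 7 genes, the permutation p was 0.153 for Fdps, Mvd and Fasn and 0.157 for Sqle.

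Since most of these enzymes differed in the same livers, their promoters were read from RefSeq (GRCm38.p6, 250 bases before to 50 bases after the start of each gene), where 15 of the 20 genes had an entry. The motifs searched, on both strands, were the sterol response elements TCACNCCAC and CACNCCAC, the CCAAT-box forms CCAAT and CCAATC that NF-Y binds, the Sp1 box GGGCGG and the E-box CACGTG. CACNCCAC lies within TCACNCCAC, and CCAAT within CCAATC. Hmgcs1 is shown because it alone of the 15 held TCACNCCAC, and Mvd and Idi1 because they had the largest log2 fold changes among genes with an entry. In the lines below, capitals mark TCACNCCAC and CCAATC or its reverse complement GATTGG.
Hmgcs1: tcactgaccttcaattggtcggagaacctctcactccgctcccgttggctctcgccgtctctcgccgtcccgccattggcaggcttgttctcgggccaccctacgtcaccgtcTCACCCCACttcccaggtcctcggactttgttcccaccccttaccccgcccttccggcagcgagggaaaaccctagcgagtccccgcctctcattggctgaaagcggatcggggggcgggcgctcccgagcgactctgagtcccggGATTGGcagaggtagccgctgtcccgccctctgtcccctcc
Mvd: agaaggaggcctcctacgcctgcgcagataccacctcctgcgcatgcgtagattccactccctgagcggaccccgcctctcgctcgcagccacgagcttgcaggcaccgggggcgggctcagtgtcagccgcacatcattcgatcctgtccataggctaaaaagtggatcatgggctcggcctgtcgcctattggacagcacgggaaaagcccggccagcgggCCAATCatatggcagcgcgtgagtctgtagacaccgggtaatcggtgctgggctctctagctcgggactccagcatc
Idi1: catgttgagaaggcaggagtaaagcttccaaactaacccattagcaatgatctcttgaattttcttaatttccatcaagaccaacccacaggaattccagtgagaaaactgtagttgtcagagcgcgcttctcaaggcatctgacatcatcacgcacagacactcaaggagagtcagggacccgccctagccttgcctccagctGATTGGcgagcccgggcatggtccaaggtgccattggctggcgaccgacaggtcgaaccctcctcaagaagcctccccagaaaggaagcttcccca
The Hmgcs1 window is chr13:119690101-119690400 on the plus strand, that of Mvd chr8:122443373-122443672 on the minus strand and that of Idi1 chr13:8885356-8885655 on the plus strand. In Hmgcs1 the sterol response element begins at position -137 from the RefSeq start of the gene and GATTGG at position 10. CCAATC begins at position -27 from that start in Mvd, and GATTGG at position -46 in Idi1. The GENCODE annotation starts the gene at 119690379 for Hmgcs1 and at 8885501 for Idi1, so positions counted from there would differ. Bases after the RefSeq start were found in a GENCODE transcript of the gene for Mvd and Idi1 but not for Hmgcs1. CCAATC in either orientation was in 13 of the 15 promoters, against 18.2% of the 27025 mouse genes with an entry and 23.4% of the genes tested here that have one. CCAAT was in 14 of 15 (41.1% of all genes, 42.9% of those tested), GGGCGG in 14 (38.2% and 66.2%), CACGTG in 3 (8.09% and 11.6%), CACNCCAC in 2 (7.12% and 7.57%) and TCACNCCAC in 1 (1.44% and 1.39%). These matches describe the sequence of the windows and were looked for with the expression results known.

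The same statin was also given on top of GGOH, and that pair of groups shares no liver with the pair above. Combination livers 2 and 3 had a high mitochondrial share, 27.9% and 29.2%, where the highest among the 10 livers compared above was 16.4%. Liver 3 of that group also had a small library, with a total of 8548120. The part of these libraries in the combination values given here and below was not tested. Combination livers against GGOH livers had 19 of 20 cholesterol genes higher, with a median of 0.58, against 50.9% of all genes positive. The log2 fold change of the combination over GGOH was 1.13 ± 0.45 for Lss, 1.09 ± 0.55 for Mvd, 0.82 ± 0.40 for Dhcr7 and 0.81 ± 0.50 for Fdps, and it was -0.02 ± 0.20 for Ebp. Fdps averaged 63.3 CPM in combination livers and 35.9 CPM in GGOH livers. No gene passed in that comparison (edgeR, 0 at an adjusted p under 0.05 and 1788 at an unadjusted p under 0.05). The test of whether the statin effect differed with and without GGOH called 0 genes too, with 369 at an unadjusted edgeR p under 0.05, so no gene named here is shown to differ between the 2 settings.

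Genes through which sterols act on uptake and on SREBP itself had smaller fold changes. Of 11 tested, 9 were positive with a median of 0.21, and Tmem97, a sterol-regulated receptor of the endoplasmic reticulum, was at an unadjusted edgeR p under 0.05, with 0.48 ± 0.21 and treated livers 1, 3 and 4 above every vehicle liver. Over all genes tested, the shares to set beside this list and each list below are 47.3% positive. At an unadjusted edgeR p under 0.05 they are 1.77% higher and 1.92% lower. The numbers of the sterol uptake and control list moved with single livers. The median was 0.48 without vehicle liver 1, 0.09 without vehicle liver 2 and 0.10 without vehicle liver 5, with 3, 3 and 1 genes at an unadjusted edgeR p under 0.05. That number of genes was 4 without rosuvastatin liver 5 and 0 without rosuvastatin liver 1, rosuvastatin liver 3 or vehicle liver 3. Insig1, which holds the SREBP complex in the endoplasmic reticulum, was at 0.59 ± 0.32 (0.98 without vehicle liver 2) and Stard4, a sterol carrier, at 0.40 ± 0.27. For the factors themselves, Srebf2 was at 0.21 ± 0.25 and Srebf1 at -0.15 ± 0.37, and the sign of Srebf1 turned positive in 5 of 21 settings, including both TPM fits and the fit without vehicle liver 1. Scap, the escort of SREBP, was at 0.04 ± 0.27, Insig2 at 0.08 ± 0.24, Mylip, a ubiquitin ligase, at -0.00 ± 0.16, and Rnf145 at 0.24 ± 0.35. The signs of Scap, Insig2 and Mylip turned in 5, 4 and 15 of 21 settings.

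In the isoprenoid arm the values lay around 0. Of its 17 enzymes and prenyltransferase subunits, 9 were positive with a median of 0.03 (6 and -0.04 without rosuvastatin liver 3), and 0 reached an unadjusted edgeR p under 0.05. Ggps1, which makes geranylgeranyl diphosphate from the product of Fdps, had 14.9, 13, 8.96, 14.2 and 12.3 CPM in rosuvastatin livers and 8.20, 22, 14.1, 18.9 and 20.05 CPM in vehicle livers. Treated liver 3, the highest for cholesterol enzymes, was the lowest of its group for Ggps1, and vehicle livers 2, 4 and 5 were above all 5 treated livers. The log2 fold change was -0.39 ± 0.20, and -0.55 to -0.10 over 21 alternative settings. Transcripts of Ggps1 have 40.1% GC, in the GC-poorest class of genes described below, where 24.3% of genes were higher with rosuvastatin. The part of GC content in the Ggps1 values was not tested. Pdss2, a subunit of the synthase that makes the ubiquinone tail, was at -0.33 ± 0.17 with 4 of 5 treated livers below every vehicle liver, and Icmt, which methylates prenylated proteins, was at 0.49 ± 0.34. Under the TPM scale, which moved the median of all genes to 0.11, 13 of the 17 isoprenoid genes were positive.

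Fatty acid and triglyceride synthesis genes had positive fitted values throughout the list. All 20 genes tested had a positive log2 fold change, against 47.3% of all genes, with a median of 0.29. The level summed over all 21 listed genes did not follow this. Its median was 6435 CPM in rosuvastatin livers (4058 to 16061) and 7755 CPM in vehicle livers (5800 to 11111). Of the 20, 6 were at an unadjusted edgeR p under 0.05 and higher, against 1.77% of all genes. The count of positive genes was 19 on the TPM scale and 17 with an offset for GC content. Without vehicle liver 1 the median log2 fold change was 0.53, with 19 of 20 positive and 9 at an unadjusted edgeR p under 0.05. Without rosuvastatin liver 4, 16 of 20 were positive and 3 were at that p. Without rosuvastatin liver 5, 17 of 20 were positive and 4 were at that p. Fasn, fatty acid synthase, had 27.5, 43.4, 41.7, 88.4 and 90.8 CPM in rosuvastatin livers 1 to 5 and 51.6, 26.9, 31.7, 25.8 and 15.1 CPM in vehicle livers 1 to 5. Treated livers 4 and 5 were above every vehicle liver and treated livers 1, 2 and 3 were inside the vehicle range, so liver 5, lowest for the cholesterol enzymes, was highest for Fasn. Fasn differed by 0.95 ± 0.40 (exact permutation p = 0.0873). Treated liver 5 was also the highest of its group for Cidec, Gsta1, Srxn1 and Cish, given below, but not for the other fatty acid genes that follow. Acss2, which activates acetate, had 65.6, 49.7, 77.1, 85.7 and 57 CPM with rosuvastatin and 58, 48.8, 42.9, 39.7 and 33.2 CPM with vehicle, with treated livers 1, 3 and 4 above every vehicle liver and a change of 0.59 ± 0.22. Slc25a1, the mitochondrial citrate carrier, had 126, 79.3, 148, 99.5 and 105 CPM with rosuvastatin and 114, 57.9, 79.7, 68.6 and 77.5 CPM with vehicle, a change of 0.48 ± 0.19 in which treated livers 3 and 1 were above every vehicle liver. For Scd2, a fatty acid desaturase, treated livers 2 to 5 exceeded every vehicle liver with 3 and 4 the highest, and the change was 1.17 ± 0.37.

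In the list of lipid droplet and lipoprotein assembly genes, 14 of 18 were positive, with a median of 0.21 (0.36 without vehicle liver 1). Apoa4, an apolipoprotein that hepatocytes make under lipid load, had 3573, 972, 4942, 1155 and 3509 CPM with rosuvastatin and 1753, 1786, 1312, 1402 and 1323 CPM with vehicle. Treated livers 1, 3 and 5 were above all vehicle livers and livers 2 and 4 below all of them. The fitted change was 0.90 ± 0.35, and it was 0.62 without rosuvastatin liver 3. In combination livers over GGOH livers Apoa4 was at -0.60 ± 0.35. Cidec, which enlarges lipid droplets, had 40.1, 17.4, 60.1, 23.7 and 68.2 CPM with rosuvastatin and 38.4, 18.1, 27.2, 17.9 and 15.8 CPM with vehicle, a difference of 0.83 ± 0.36 in which the same 3 treated livers were the highest of the 10. Plin2, a droplet coat protein, was at 0.33 ± 0.19 and Mttp, which loads triglyceride onto apolipoprotein B, at -0.32 ± 0.15. Of 12 LXR target and efflux genes 9 were positive (median 0.12). The median was 0.31 without vehicle liver 1 and 0.24 without vehicle liver 3, and it was 0.04, 0.05 and 0.07, each with 7 of 12 positive, without vehicle liver 2, vehicle liver 4 and rosuvastatin liver 3. Pltp, the phospholipid transfer protein, was at 0.65 ± 0.30 (1.04 without vehicle liver 1) and Abca1, the cholesterol exporter, at -0.36 ± 0.18.

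**Figure D2:**
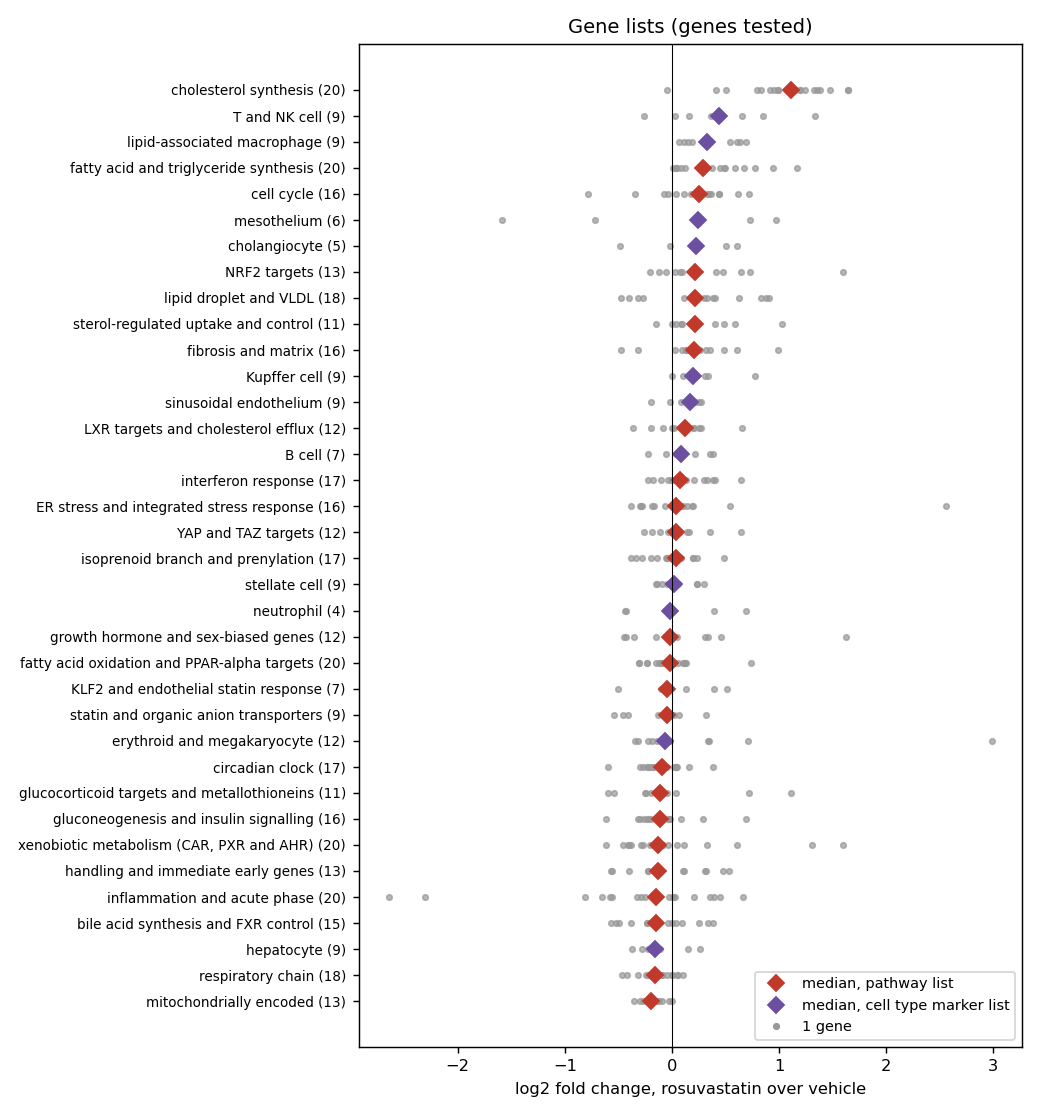
Fitted log2 fold changes (rosuvastatin over vehicle) of the members of each gene list that passed the low-count filter (grey points), with the list median as a diamond (red for pathways, purple for cell type markers). The number of genes tested is in brackets, 1 list and those with under 4 tested genes are not drawn, and cholesterol synthesis has the highest median, 1.11.

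Bile acid, transport and drug metabolism genes lay mostly below 0 in the count fit. In the bile acid list 6 of 15 were positive, with a median of -0.15, against 8 of 15 and 0.02 without rosuvastatin liver 5. Baat, which conjugates bile acids, was at -0.52 ± 0.26, Akr1d1, a reductase of the bile acid pathway, at -0.50 ± 0.25 and Abcb11, the bile salt export pump, at -0.38 ± 0.19. None of the 15 was at an unadjusted edgeR p under 0.05. Slco1b2, the mouse OATP1B transporter that takes up statins, had 1586, 1628, 1377, 1886 and 1248 CPM in rosuvastatin livers 1 to 5 and 1162, 2708, 1655, 2361 and 2749.9 CPM in vehicle livers 1 to 5. Vehicle livers 2, 4 and 5 were above all treated livers and vehicle liver 1 below all of them. The log2 fold change was -0.46 ± 0.22 (edgeR unadjusted p = 0.0458), and -0.47 ± 0.22 in combination livers over GGOH livers. With an offset for transcript GC content the value for Slco1b2 was -0.26, and on the log2(TPM + 1) scale -0.21.

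Among 20 genes of xenobiotic metabolism, 6 were positive (median -0.13), or 12 on the TPM scale, and the median was -0.04 without rosuvastatin liver 3. Gsta1, a glutathione transferase with near-identical copies, had 3.72, 15.6, 2.72, 7.84 and 37.5 CPM with rosuvastatin and 3.77, 4.20, 1.69, 5.55 and 7.35 CPM with vehicle. Its change was 1.60 ± 0.67, with treated liver 5 far above the rest, and 0.77 without that liver. Cyp2a5 was at -0.61 ± 0.29, or -0.39 without rosuvastatin liver 3. Both genes were at an unadjusted edgeR p under 0.05 with all livers. In the list of NRF2 targets, the antioxidant response, 10 of 13 were positive with a median of 0.21 (0.11 without rosuvastatin liver 5 and 0.14 without rosuvastatin liver 2). Srxn1, sulfiredoxin, had 56.1, 36.3, 58.6, 40.9 and 60.5 CPM with rosuvastatin and 37.9, 33.6, 35.3, 37.9 and 37.1 CPM with vehicle, a change of 0.47 ± 0.15. All treated livers but number 2 were above the highest vehicle liver. Hmox1, heme oxygenase, was at 0.64 ± 0.31. In combination livers over GGOH livers, Srxn1 was at -0.00 ± 0.15 and Hmox1 at -0.35 ± 0.31. Of 16 gluconeogenesis and insulin signalling genes 3 were positive (median -0.11), or 9 on the TPM scale and 9 without vehicle liver 1, and Ppargc1a, the coactivator of fasting metabolism, was at -0.61 ± 0.24.

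Acute phase genes differed widely from liver to liver. Saa1, serum amyloid A, had 191, 158, 1431, 65.6 and 111 CPM in rosuvastatin livers 1 to 5 and 508, 9216, 93.1, 944 and 1456 CPM in vehicle livers 1 to 5. Vehicle liver 2 alone was far above any other liver, treated liver 3 was close to vehicle liver 5, and vehicle liver 3 was below 4 of the treated livers. The log2 fold change of -2.64 ± 0.94 became -0.89 without vehicle liver 2 and -4.21 without rosuvastatin liver 3. Saa2, a near-identical neighbour with which reads can be exchanged, was at -2.30 ± 0.98, and at -0.32 without vehicle liver 2. Orm1, orosomucoid, was at -0.81 ± 0.40, and at -0.18 without that liver. Over the inflammation list, 8 of 20 genes were positive with a median of -0.14, or 12 of 20 on the TPM scale, and without vehicle liver 2 there were 13 of 20 with a median of 0.09. Without rosuvastatin liver 3 there were 5 of 20 with a median of -0.38. In the interferon list 12 of 17 were positive (median 0.08, and -0.14 to 0.28 over 21 alternative settings). Irf7, a regulator of interferon genes, had 44.6, 32.6, 39.1, 30.1 and 33.3 CPM with rosuvastatin and 29.3, 19.8, 20.5, 25.5 and 19.6 CPM with vehicle, so that every treated liver was above every vehicle liver. The change was 0.65 ± 0.26 (edgeR unadjusted p = 0.0203).

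Markers of the other cell types of the liver overlapped between the groups, but for Csf3r of the neutrophil list (0.69 ± 0.40). Of that list's 8 genes 4 were tested, with 2 higher, 2 lower and a median of -0.02. Their summed level overlapped, with 8.85 to 18.5 CPM in rosuvastatin livers and 3.72 to 31.3 CPM in vehicle livers. In bulk tissue, more cells of a type and more RNA per cell cannot be told apart. All 9 markers of lipid-associated macrophages were positive, with a median of 0.33 that was 0.11 without rosuvastatin liver 3 and 0.57 without vehicle liver 1. Without rosuvastatin liver 5, 7 of the 9 were positive. For this list the summed level was 311 to 661 CPM in rosuvastatin livers and 323 to 475 CPM in vehicle livers. For Kupffer cells 8 of 9 were positive (median 0.20; sums of 258 to 583 and 232 to 444 CPM), but 3 of 9 (-0.03) without rosuvastatin liver 1. The Kupffer median was 0.42 without rosuvastatin liver 5, 0.41 without vehicle liver 2 and 0.07 without vehicle liver 3. For T and NK cells 8 of 9 were positive (median 0.44; sums of 6.74 to 14.0 and 3.63 to 12.6 CPM), and Trac, a T cell receptor chain, was at 1.33 ± 0.58 on levels under 2 CPM. Without rosuvastatin liver 3, Trac was at 0.88 and the median of the T and NK list at 0.14, which was 0.70 without vehicle liver 4. Sinusoidal endothelium had 7 of 9 positive (median 0.16), stellate cells 5 of 9 (0.02), B cells 5 of 7 (0.08) and hepatocytes 2 of 9 (-0.16), or 5 of 9 (0.04) without rosuvastatin liver 5. Among fibrosis and matrix genes 14 of 16 were positive (median 0.21), and 8 of 16 (-0.03) without rosuvastatin liver 5. The medians of these lists moved with other livers too. Without vehicle liver 1 it was 0.57 for matrix, 0.28 for sinusoidal endothelium and 0.18 for stellate cells, and without vehicle liver 3 it was -0.04 for B cells. With all livers, none of the macrophage, endothelial, stellate, B cell, hepatocyte or matrix genes was at an unadjusted edgeR p under 0.05. The part of these cell types in the results above was not tested.

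Over all 12789 genes, edgeR called 0 at an adjusted p under 0.05 (0% of genes; smallest adjusted p 0.973). At an unadjusted p under 0.05 there were 472 genes (3.69%), 226 higher with rosuvastatin (1.77%) and 246 lower (1.92%), where chance alone gives 639. DESeq2 called 2 genes, Nfe2 and Prg4 (adjusted p = 0.0439 for each). In 66 genes (0.516%) the 2 groups did not overlap, with every treated liver above every vehicle liver in 30 (0.235%) and below in 36 (0.281%). Random assignment of the livers to the groups separates a gene completely, in either direction, with a probability of 0.00794. The observed share of 0.516% was below that, so lack of overlap by itself does not set a gene apart from chance. On the TPM scale, 91.9% of the genes at an unadjusted p under 0.05 were higher with rosuvastatin, against 47.9% in the count fit. The spread across livers of a group, as the common biological coefficient of variation, was 0.2996.

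**Figure D3:**
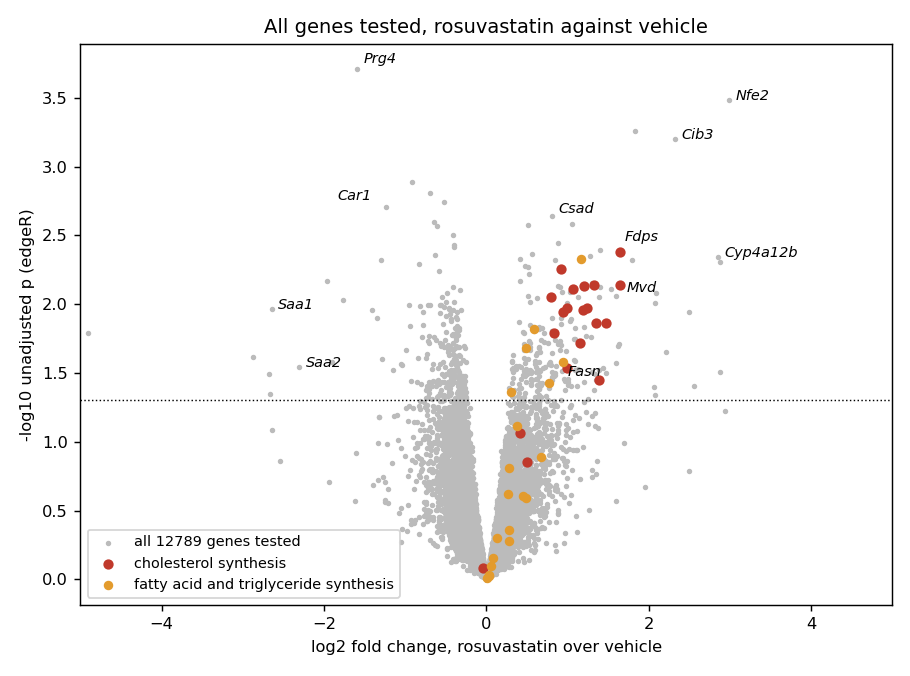
Fitted log2 fold change (rosuvastatin over vehicle, horizontal) against the −log10 unadjusted edgeR p (vertical) for all 12789 genes tested, with cholesterol synthesis genes in red and fatty acid and triglyceride synthesis genes in orange. The dotted line marks an unadjusted p of 0.05, above which 17 cholesterol genes and 6 fatty acid genes lie, all to the right of 0.

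Nfe2, a bZIP factor best known from blood cell precursors (chromosome 15), had 7.23, 3.61, 10.3, 2.56 and 0.719 CPM in rosuvastatin livers 1 to 5 and 1.00, 0.747, 0.261, 0.564 and 0.382 CPM in vehicle livers 1 to 5. Treated liver 5 alone lay within the vehicle range, and livers 3 and 1 were the highest. Liver 3 was also the highest for most cholesterol enzymes. Liver 4, above every vehicle liver for 17 of those 20 enzymes, was below liver 2 for Nfe2. The fitted change was 2.99 ± 0.70 in edgeR, and 1.70 ± 0.69 in combination livers over GGOH livers. The other erythroid and megakaryocyte markers did not reach an unadjusted edgeR p under 0.05: of 12 tested including Nfe2, 4 were positive with a median of -0.07 (10 and 0.06 without rosuvastatin liver 3), and their summed level was 588 to 4736 CPM with rosuvastatin and 686 to 3454 CPM with vehicle. Of the list's 15 genes, 1 was at 0 in all 10 livers.

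Csad, the decarboxylase that makes hypotaurine, the precursor of the taurine used to conjugate bile acids, had 82.3, 76.2, 115, 106 and 74.9 CPM with rosuvastatin and 49.5, 66.1, 35.9, 47.3 and 60.9 CPM with vehicle. Every treated liver was above every vehicle liver, and livers 3 and 4 were the highest. The change was 0.81 ± 0.23, and 0.11 ± 0.23 in combination livers over GGOH livers. Cib3, a calcium-binding protein, had 4.77, 2.31, 19.8, 8.36 and 3.65 CPM with rosuvastatin and 1.86, 1.68, 1.11, 2.26 and 0.859 CPM with vehicle, also with no overlap and with treated liver 3 far above the rest. Its change was 2.32 ± 0.58 with vehicle as the baseline and -0.00 ± 0.57 with GGOH as the baseline, and the difference between those 2 effects did not pass (edgeR adjusted p = 0.999).

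Mif, a cytokine also made by hepatocytes, had 68.1, 56.2, 76.9, 58.2 and 76.4 CPM with rosuvastatin and 54.2, 33.5, 40.8, 47.6 and 51.2 CPM with vehicle, with all treated livers above all vehicle livers and a change of 0.56 ± 0.18. Cish, a feedback inhibitor of growth hormone signalling, had 2.60, 1.77, 2.95, 4.76 and 7.30 CPM with rosuvastatin and 1.10, 1.12, 1.69, 1.41 and 0.955 CPM with vehicle, again with no overlap, and was at 1.62 ± 0.65. Treated liver 5 had the highest Cish level. Among the more abundant genes without overlap, Ikbkg, the regulatory subunit of the IKK complex, was at 0.32 ± 0.14, Vasp, an actin regulator, at 0.54 ± 0.21, Mettl27 at 0.46 ± 0.18, Plekha3 at 0.19 ± 0.12 and Rnf4, a SUMO-targeted ubiquitin ligase, at 0.17 ± 0.12. Of the genes with the smallest p-values, Map1lc3a, an LC3 autophagy protein, was at 0.51 ± 0.15, Cystm1 at 0.88 ± 0.27 and Dusp3, a phosphatase, at 0.42 ± 0.13, each with overlap between the groups. Cyp4a12b, a P450 with a near-identical copy, was at 2.86 ± 0.90, a value that was 1.59 without rosuvastatin liver 3, where it reached 52.6 CPM against 0.664 to 12.7 CPM in the other treated livers.

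**Figure D4:**
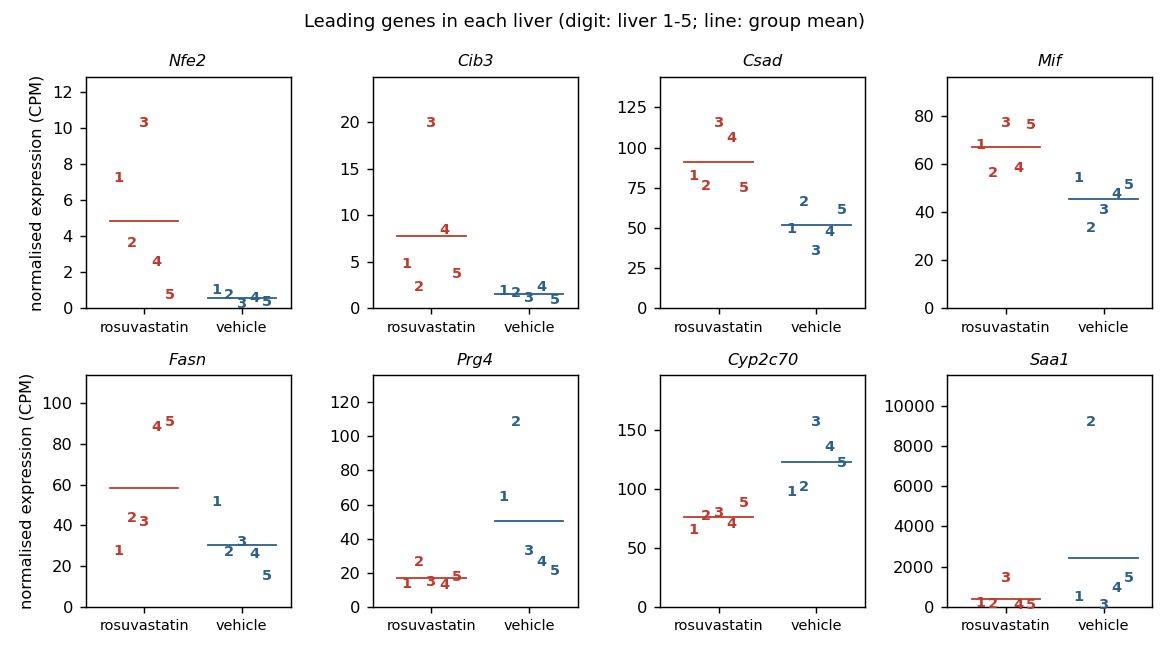
Normalised expression (CPM, linear axes from 0) of 8 genes in each liver, with digits for livers 1 to 5, rosuvastatin (red, left) and vehicle (blue, right) and lines at the group means. Csad, Cib3 and Mif are higher and Cyp2c70 is lower in every treated liver than in every vehicle liver, while vehicle livers 1 and 2 stand above the rest for Prg4 and vehicle liver 2 for Saa1.

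Prg4, lubricin, had the smallest p-value of the comparison, with 13.4, 26.3, 14.3, 12.6 and 17.5 CPM in rosuvastatin livers 1 to 5 and 64.2, 109, 32.7, 26.4 and 21 CPM in vehicle livers 1 to 5. Vehicle livers 1 and 2 were far above the rest, and vehicle livers 4 and 5 lay close to the treated livers, of which number 2 was above vehicle liver 5 and just below vehicle liver 4. The fitted change of Prg4 was -1.59 ± 0.35, and -1.09 without vehicle liver 2. In combination livers over GGOH livers it was 0.11 ± 0.35. Prg4 is also a marker of mesothelium, the outer lining of the liver. Of that list's 6 tested genes 4 were positive (median 0.24; 3 and -0.11 without rosuvastatin liver 3), and the levels of Msln were 0.0681 to 1.49 CPM with rosuvastatin and 0 to 0.906 CPM with vehicle. The part of this lining in the Prg4 result was not tested.

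Lower in every treated liver than in every vehicle liver, by CPM, were Cyp2c70, the mouse enzyme that makes muricholic acids, Serpind1, Acbd5 and Sec62. Separation in this direction depended on the scale. By CPM 30 of the 66 genes without overlap were higher with rosuvastatin, and by TPM 39 of 44 were. Cyp2c70 had 65.2, 77.1, 79.2, 70.4 and 87.9 CPM with rosuvastatin and 97.2, 101, 157, 135 and 122 CPM with vehicle, a change of -0.69 ± 0.24, and 0.10 ± 0.24 in combination livers over GGOH livers. Serpind1, heparin cofactor II, had 399, 347, 332, 349 and 268 CPM with rosuvastatin and 417, 427, 421, 466 and 433 CPM with vehicle, a change of -0.35 ± 0.18. Acbd5, a peroxisomal membrane protein that binds long acyl-CoA, was at -0.37 ± 0.15 and at -0.41 ± 0.15 in combination livers over GGOH livers, and Sec62, a protein of the translocon, was at -0.28 ± 0.13 and at -0.29 ± 0.13. Also without overlap were Ctcf, the insulator-binding factor (-0.41 ± 0.12), Wdr76 (-0.70 ± 0.19), Fip1l1, a polyadenylation factor (-0.40 ± 0.12), Fndc3a (-0.38 ± 0.16), Ppp4r3a (-0.26 ± 0.12), Ppp1r15b (-0.21 ± 0.10) and Vps37a (-0.18 ± 0.11), whose value was 0.0049 on the log2(TPM + 0.1) scale. With some overlap, the smallest p-values belonged to Olfr624 (-0.91 ± 0.25), Pdcd4, an inhibitor of translation (-0.52 ± 0.15), Car1, a carbonic anhydrase (-1.24 ± 0.35), Ccdc174 (-0.61 ± 0.18) and Dcaf1 (-0.40 ± 0.12).

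The direction of a gene in this comparison went with the GC content of its transcripts. Genes were divided into 5 classes of 2518 genes each, from GC-poor (31.0 to 43.4% GC) to GC-rich (55.1 to 72.8% GC). The share of genes higher with rosuvastatin was 24.3, 37.6, 46.2, 58.5 and 69.6% from the lowest to the highest class. Of genes at an unadjusted edgeR p under 0.05, the lowest class held 18 higher and 110 lower, and the highest class 80 higher and 4 lower. Within each liver, the correlation across genes between GC content and deviation from the mean of the 10 livers was between 0.00342 and 0.318 in the 5 rosuvastatin livers (Spearman's coefficient; genes are not independent replicates). In the vehicle livers it was 0.346 and 0.159 in livers 1 and 3 and between -0.382 and -0.295 in livers 2, 4 and 5. Against the mean of all 20 libraries, it was -0.321, -0.150, -0.384, -0.287 and 0.127 in GGOH livers 1 to 5. In the combination livers it was between 0.0671 and 0.235. Acbd5 (40.5% GC) and Sec62 (42.4% GC), given above for both pairs of groups, are in the GC-poor class. The part of GC content in the values of combination over GGOH livers was not tested. The genes lower without overlap had a median GC content of 43.1% and those higher without overlap 53.0%, against 49.3% over all tested genes and 49.2% for cholesterol synthesis. Transcript length differed too. Its median was 2575 bases for genes higher and 3845.5 for genes lower at an unadjusted edgeR p under 0.05, against 3329.5 over all. The same correlation made with length was -0.448 to 0.236 in rosuvastatin livers and -0.392 to 0.428 in vehicle livers. The part of length was not tested.

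**Figure D5:**
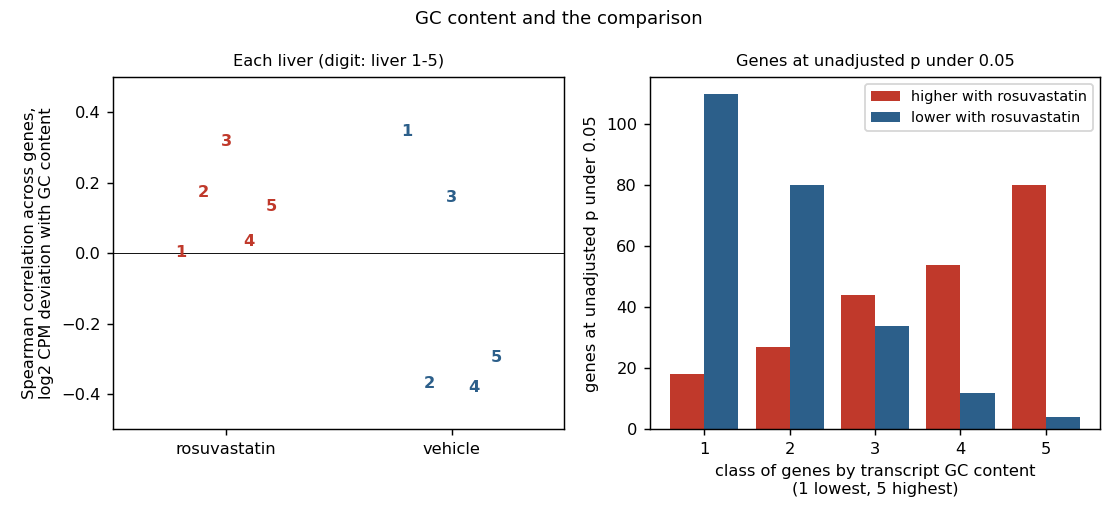
Left, Spearman correlation across genes between transcript GC content and the deviation of log2 CPM in each liver (digits), rosuvastatin left and vehicle right. Right, genes at an unadjusted edgeR p under 0.05 in each class of GC content, higher (red) and lower (blue) with rosuvastatin, with 110 lower genes in the lowest class and 80 higher genes in the highest.

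With an offset for GC content in the fit, an alternative added after the data were seen, the 5 classes had medians between -0.03 and -0.02. Cholesterol synthesis then had a median of 1.12 with 17 of 20 genes at an unadjusted edgeR p under 0.05, fatty acid synthesis a median of 0.25 with 17 of 20 positive, and sterol-regulated uptake a median of 0.13. Genes at an unadjusted edgeR p under 0.05 numbered 410 with the offset and genes without overlap 63. The mitochondrially encoded genes, all 13 of negative sign without the offset (median -0.20), had a median of -0.04 with it (5 of 13 positive), and 7 of 13 were positive on the TPM scale. Without rosuvastatin liver 3, whose mitochondrial share of 8.66% was the lowest of the 10, 5 of 13 were positive and the median was -0.04 with no offset. The part of library preparation or RNA quality in the GC pattern was not tested.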

How the data were processed

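Poly(A) RNA was extracted with RNeasy kits, made into libraries with a TruSeq kit and sequenced as paired ends on an Illumina NovaSeq, per the labels' protocols. Per the submitters' processing notes, the authors used bcl2fastq 2.19, kallisto 0.44.0, DESeq2 and the GRCm38 build. The deposited tables hold estimated counts per gene, which were rounded to whole numbers here, and TPM per gene, which the authors' tables give per library. The entry without a gene name (at most 0.0157% of counts) was left out. The members and gene lists were chosen with earlier results of these data known.

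All 20 libraries (4 groups of 5) entered 1 group-means fit with edgeR 4.0.16 (R 4.3.3): filterByExpr, TMM, quasi-likelihood F test, contrast rosuvastatin minus vehicle, Benjamini-Hochberg adjustment over 12789 genes at 0.05. The fit was tested on simulated data with known changes. Errors of fold changes are SE. A gene list was described by its count and median, without a test. GC content and positions came from GENCODE M21 (98.4% of tested genes matched). DESeq2 1.42.0 and limma 3.58.1 (voom, and log2(TPM + 1) or log2(TPM + 0.1)) were alternatives, as were other filters and scalings, a replicate block, leaving out each liver, a GC offset and leaving out 3 libraries that stood apart. In both groups of the comparison replicates differed by far more than sampling noise (lowest chi-square per gene 50.6 with rosuvastatin and 42.8 with vehicle).

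Genes named in the text, leaving out predicted and clone names, were the tested cholesterol synthesis and sterol control genes, the 10 of smallest p in each direction once those averaging under 1 on the log2 CPM scale were set aside, the 8 most abundant without overlap in each direction, up to 4 of smallest p in each other list, the 5 most abundant that are not mitochondrial, and list members with an outlying liver, but some genes and 1 list that this takes in are not reported here. Msln, outside this rule, was named after its values were seen. Kallisto divides reads among near-identical copies, so values of Saa1, Saa2, Scd2, Gsta1, Cyp2a5, Cyp4a12b and the Mup genes are uncertain, and whether counting used strand is not given in the sources used here.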

Additional observations from a re-analysis of the deposited data

Results flagged for a closer look

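In 10 of 276 groups of 5 livers examined, 1 liver stood apart from the other 4 by Dixon's test at the 95% level, where chance gives 13.8. Rosuvastatin liver 3, the highest for most cholesterol enzymes, held 2 of them. Saa2 was at 1047 CPM there, against 36.7 to 78.8 CPM in the other treated livers. Asns, the asparagine synthetase induced by amino acid stress, was at 7.88 CPM in rosuvastatin liver 3, against 0 to 0.272 CPM in the others. Rosuvastatin liver 5, the lowest for cholesterol enzymes, held 3. Mup19, a major urinary protein, was at 706 CPM there, against 16353 to 36504 CPM in the other treated livers. Acbd5 was at 196.7 CPM, against 222 to 230.3 CPM, and Plekha3 at 17.2 CPM, against 14.6 to 15.2 CPM. In rosuvastatin liver 2, Fip1l1 was at 13.1 CPM, against 14.8 to 15.4 CPM.

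Vehicle liver 2, the highest for Saa1, held 3 of the 4 among vehicle livers. Pmvk was at 31.0 CPM there, against 19.3 to 22.2 CPM in the other vehicle livers. Rnf4 was at 51.5 CPM, against 60.2 to 62.3 CPM. The mean of the hepatocyte markers on the log2 CPM scale was 11.3, against 11.5 to 11.6. The total count of vehicle liver 1 was 16776626, against 12947681 to 13776285 in the other vehicle livers.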

How the results depend on the processing

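With 5 livers a group and a biological coefficient of variation of 0.2996, the spread between livers sets the precision for most genes. Trac, Asns and Msln rest on few counts, as do the vehicle levels of Nfe2 (0.261 to 1.00 CPM). The vehicle levels of Cib3 (0.859 to 2.26 CPM) and Cish were low too. In 20 of 21 alternative settings no gene was called, and DESeq2 called 2, Nfe2 (3.02) and Prg4 (-1.60). Genes at an unadjusted p under 0.05, 472 in the edgeR fit of 20 libraries, numbered 725 without the low-count filter (20734 genes tested), 288 with only the 10 libraries compared, 3062 in voom with sample weights and 1893 without vehicle liver 1 and 2 combination libraries together, a setting chosen after seeing the data, as was the GC offset. Leaving out 1 liver gave 280 (without rosuvastatin liver 3) to 1760 (without vehicle liver 1), and 285 without vehicle liver 2. The share of these genes that was higher with rosuvastatin was 47.9% in that fit, 91.9% on the log2(TPM + 1) and 92.8% on the log2(TPM + 0.1) scale, 75.3% with only the 10 libraries, 67.3% without the filter, 68.2% without rosuvastatin liver 5 and 66.7% without vehicle liver 2. The median of all genes was 0.11 on the first TPM scale and 0.18 on the second. Genes without overlap, 66 with all livers, numbered 85 to 270 when 1 liver was left out, with the most without vehicle liver 1, and 267 without the 3 libraries; fewer livers make separation easier. The cholesterol synthesis median was 0.77 to 1.35 over the 21 settings, with 8 (without rosuvastatin liver 3) to 18 members at an unadjusted p under 0.05.

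Signs turned for 8 of the genes named. Ebp was 0.19 and 0.20 on the TPM scales with 1 and 0.1 added, and -0.12 to 0.11 when 1 liver was left out. Srebf1 was 0.22 and 0.29 on those scales, 0.59 in voom, 0.39 without the 3 libraries and -0.32 to 0.41 with 1 liver left out. Asns was -1.23 to 3.66, Insig2 -0.061 to 0.36, Scap -0.18 to 0.44 and Mylip -0.041 to 0.063 when 1 liver was left out. Insig2 was -0.17 in voom and -0.075 without the 3 libraries, Scap -0.072 with the GC offset, and Apoe -0.12 with the GC offset. Mylip was 0.041 without the filter, 0.0015 with the stricter filter, 0.037 with only the 10 libraries, 0.0078 with the replicate block, 0.16 and 0.20 on the TPM scales, 0.062 in voom and 0.020 without the 3 libraries. Vps37a was 0.0049 on the log2(TPM + 0.1) scale. The cause of these changes was not tested.

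Replicate numbers did not pair the livers, with correlations of same-numbered deviations of -0.362, -0.0013, 0.128, 0.112 and -0.224. A replicate block called 0 genes, with 407 at an unadjusted p under 0.05 and 15 cholesterol synthesis members among them (median 1.04). Counts of genes without overlap were not made separately for DESeq2, voom, the replicate block and log2(TPM + 0.1). By TPM there were 44 such genes, 39 of them higher with rosuvastatin.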

Other observations

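Several other gene groups had medians near 0. Of 20 genes of fatty acid oxidation and PPAR-alpha targets, 10 were positive (median -0.02), of 17 clock genes 7 (median -0.09) and of 13 immediate early genes 6 (median -0.13), where without vehicle liver 1 the numbers were 13, 11 and 9. In these 3 lists 0 genes were at an unadjusted edgeR p under 0.05. Among 16 cell cycle genes 12 were positive (median 0.26), or 8 (median -0.0025) without rosuvastatin liver 5, and Ccne2, a cyclin of S phase entry, was at -0.78 ± 0.29. Of 16 genes of the endoplasmic reticulum and integrated stress responses 9 were positive (median 0.04), or 5 (median -0.38) without rosuvastatin liver 3. In the lists of YAP and TAZ targets 7 of 12 were positive (median 0.03, and 0.15 without vehicle liver 1), of endothelial KLF2 genes 3 of 7 (-0.04), or 6 of 7 without rosuvastatin liver 3, and of glucocorticoid targets and metallothioneins 3 of 11 (-0.11), or 6 of 11 without vehicle liver 1. Respiratory chain genes of the nucleus had 3 of 18 positive (median -0.16) in the count fit and 14 of 18 on the TPM scale, with a median of -0.06 without rosuvastatin liver 3 and -0.02 without vehicle liver 2 or 5. Of 12 growth hormone and sex-biased genes, 6 were positive (median -0.02, and 0.10 without vehicle liver 1). Cholangiocyte markers had 3 of 5 positive (median 0.22), or 2 of 5 (-0.15) without rosuvastatin liver 3. Neutrophil markers had 2 of 4 positive (median -0.02), or 4 of 4 (0.46) without vehicle liver 2, and adipocyte markers 1 of 2 (-0.21, and 0.05 without vehicle liver 2). The single tested skeletal muscle and pancreatic acinar markers were at -0.58 and -0.07.

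Among the 5 most abundant transcripts that are not mitochondrial, the major urinary protein genes ranged widely from liver to liver. Mup22 was at 36914, 44910.3, 26802, 41932 and 9956 CPM in rosuvastatin livers 1 to 5 and at 12131, 64830.2, 27323, 61185 and 78492 CPM in vehicle livers 1 to 5, with rosuvastatin liver 5 and vehicle liver 1 the lowest of their groups. Mup19 was at 16353, 36504, 17695, 18611 and 706 CPM with rosuvastatin and at 3991, 38643, 7520.4, 41335 and 45800.5 CPM with vehicle, with the same livers lowest. Selenop, the plasma selenium carrier, was at 29462, 19084, 13612, 22907 and 19906 CPM with rosuvastatin and 9889.7, 37423, 16484, 34892 and 36554 CPM with vehicle, where vehicle livers 2, 4 and 5 were the highest of the 10. Apoe, the lipoprotein ligand, was at 13916, 13216, 14341, 10464 and 11264 CPM with rosuvastatin and 12983, 9908, 12522, 10241 and 13719.6 CPM with vehicle.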
